A study of Homo sapiens with 12 samples.

Results

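The genes that set the threshold for mitochondrial apoptosis were examined in PC9 and H1650 cells at T0 and after exposure to an EGFR inhibitor. The set comprised 8 genes of the BCL2 family, chosen by symbol from the 60591 genes in the count table. MCL1, BCL2L1, BCL2, BCL2L2 and BCL2A1 are the 5 anti-apoptotic genes, and BAX, BAK1 and BOK are the 3 effector genes. All 8 were listed, and 7 passed the expression filter that kept 19108 genes for testing. BCL2A1 did not pass, and it is described by its reads.

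PC9 and H1650 are established non-small cell lung cancer lines that carry the same activating deletion in EGFR, and the labels give no engineered change in either. Both lines were drugged after attaching overnight. T0 cells received 0.1% DMSO and were collected at 0 h, and treated cells were collected 36 h after addition of 10 µM erlotinib, a reversible first-generation EGFR inhibitor, or 0.1 µM osimertinib, a covalent third-generation inhibitor. This gave 6 groups with 2 replicate libraries of polyA RNA apiece, 12 in all. The study describes the RNA-seq replicates as biological, and how they were separated (wells, passages or days) is not given in the sources used here. No vehicle library at 36 h was analysed here, and drug and time in culture cannot be told apart. The erlotinib and osimertinib comparisons of a line share its T0 libraries, and the doses of the drugs differ.

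Commitment to intrinsic apoptosis is decided at the outer mitochondrial membrane. The effectors BAX and BAK oligomerize there and release cytochrome c, which assembles with APAF1 into the apoptosome and activates caspase-9 and then the executioner caspases. The anti-apoptotic proteins MCL1, BCL-XL (from BCL2L1), BCL2, BCL-w (from BCL2L2) and BFL1 (from BCL2A1) hold the effectors in check, and BH3-only proteins such as BIM and PUMA bind into their groove and neutralize them. In EGFR-mutant lung cancer cells, the balance between BIM and the anti-apoptotic proteins has been proposed as a determinant of whether loss of EGFR signaling kills. The study describes this question as without a consensus, and it proposes that induction of BIM alone does not suffice.

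Reads counted on genes ranged from 17961765 to 26346187 per library. Levels are given as CPM, that is, counts scaled for library size by the TMM method. Where no read was counted, up to 3 reads remain possible, equal to between 0.116 and 0.168 CPM in these libraries, a limit for counting error only. The 5 epithelial markers (EPCAM, KRT8, KRT18, KRT19 and CDH1) summed to between 5170 and 9160 CPM. The 10 leukocyte, endothelial and fibroblast markers together summed to at most 3.11, 5.15 and 6.98 CPM in PC9 cells at T0, under erlotinib and under osimertinib, and to at most 3.17, 3.61 and 5.30 CPM in H1650 cells. PTPRC, CD3E, DCN and LUM had at most 5 reads in any library. CD79A, PDGFRB, PECAM1, VWF, CDH5 and CD14 had at most 9, 22, 32, 48, 62 and 83. With each drug in PC9 cells, 2 of the 3 endothelial markers were called higher and 1 lower, and PDGFRB was called higher. CD14 had 43 and 54 reads in H1650 cells at T0, beside 1 and 6 in PC9. Of 5 genes transcribed downstream of ERK, 4 (DUSP6, SPRY4, ETV4 and ETV5) fell and EGR1 rose in PC9 cells with both drugs. In H1650 cells 2 were higher and 1 was lower under erlotinib, while 0 were higher and 2 were lower under osimertinib. Of all tested genes, 32.7% were called higher in PC9 cells with each drug, and 29.1% and 28.7% lower. In H1650 cells 18% and 17.8% were called higher, and 18.5% and 17.9% lower. Under erlotinib the H1650 mean went from 5.89 to 19.45 CPM for ETV5, and from 5.03 to 9.53 for SPRY4. For EGR1 it went from 465.5 to 78.15, and to 157.8 under osimertinib. DUSP6 went from 1.75 to 2.69 and ETV4 from 4.34 to 4.91 under erlotinib. Since these are bulk libraries, fewer cells of a kind and less RNA per cell cannot be told apart.

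The stretches before a RefSeq start of 3 members are shown because these genes took different courses in PC9 cells, where BCL2L1 and BAX fell and BOK rose. RefSeq promoters on GRCh38.p14 were matched by symbol for 6 of the 8 members, and MCL1 and BCL2L2 had no entry. Each line gives the 250 bases before the RefSeq start in the direction of transcription. The windows are chr20:31723964-31724213 (minus strand, the first of 2 BCL2L1 starts), chr19:48954625-48954874 (plus strand) and chr2:241558495-241558744 (plus strand). These starts differ from the GENCODE 29 gene bounds given below. By those bounds the BOK window lies inside the gene, and the BAX and BCL2L1 windows overlap the beginning of theirs. Capitals mark matches to the E-box CACGTG.
BCL2L1: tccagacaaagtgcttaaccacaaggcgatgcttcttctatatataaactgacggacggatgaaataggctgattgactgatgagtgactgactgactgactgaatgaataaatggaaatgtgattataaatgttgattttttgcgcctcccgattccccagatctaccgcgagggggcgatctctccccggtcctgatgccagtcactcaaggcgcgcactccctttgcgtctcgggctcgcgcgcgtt
BAX: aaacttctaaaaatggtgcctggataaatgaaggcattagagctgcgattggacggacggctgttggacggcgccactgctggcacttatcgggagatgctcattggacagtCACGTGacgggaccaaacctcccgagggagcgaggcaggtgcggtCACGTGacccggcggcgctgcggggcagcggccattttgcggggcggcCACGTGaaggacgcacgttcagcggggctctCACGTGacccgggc
BOK: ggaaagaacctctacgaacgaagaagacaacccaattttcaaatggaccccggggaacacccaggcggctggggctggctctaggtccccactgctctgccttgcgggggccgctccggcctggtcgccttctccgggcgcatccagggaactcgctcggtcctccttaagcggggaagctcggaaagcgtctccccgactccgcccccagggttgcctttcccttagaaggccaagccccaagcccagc
Searched on both strands were AP-1 (TGANTCA), ETS (CCGGAAG), FOXO (GTAAACA), E-box (CACGTG) and STAT (TTCNNNGAA). The BAX promoter held 4 E-boxes, at 138, 93, 45 and 14 bases before the start. An E-box was found in 6.34% of 35116 promoters of this length, and at least 4 in 5 of them (0.0142%). None of the 5 motifs was found in the windows of BCL2L1 (either start), BCL2, BAK1 or BOK, and BCL2A1 had 1 STAT match, a motif found in 6.57% of promoters. AP-1, ETS and FOXO motifs were present in 6.57%, 8.52% and 2.98% of promoters. These matches describe the letters in the window only.

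In PC9 cells, most of the family changed at the mRNA level, while in H1650 cells BOK alone was called with either drug. Of the 7 tested members, 6 were called in PC9 cells under erlotinib (2 higher and 4 lower), at an adjusted p under 0.05, where 61.8% of all tested genes were called. Under osimertinib, 6 were called (2 higher and 4 lower) against 61.4% of all genes. In H1650 cells, 1 member was called with erlotinib and 1 with osimertinib, both lower, where 36.5% and 35.7% of all genes were called. These H1650 counts became 2 with erlotinib under 6 alternative settings, by the addition of MCL1, and 0 with osimertinib without replicate 1 of H1650 T0. The median log2 fold change of the members was -0.63 and -0.60 in PC9 cells under erlotinib and osimertinib, beside 0.07 and 0.06 over all tested genes. In H1650 cells it was -0.17 and -0.14, beside 0.01 and 0 over all tested genes. The share of members called in PC9 cells (6 of 7) lay above the share of all genes, and that in H1650 cells (1 of 7) lay below it, with only 7 members behind each share.

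**Figure D1:**
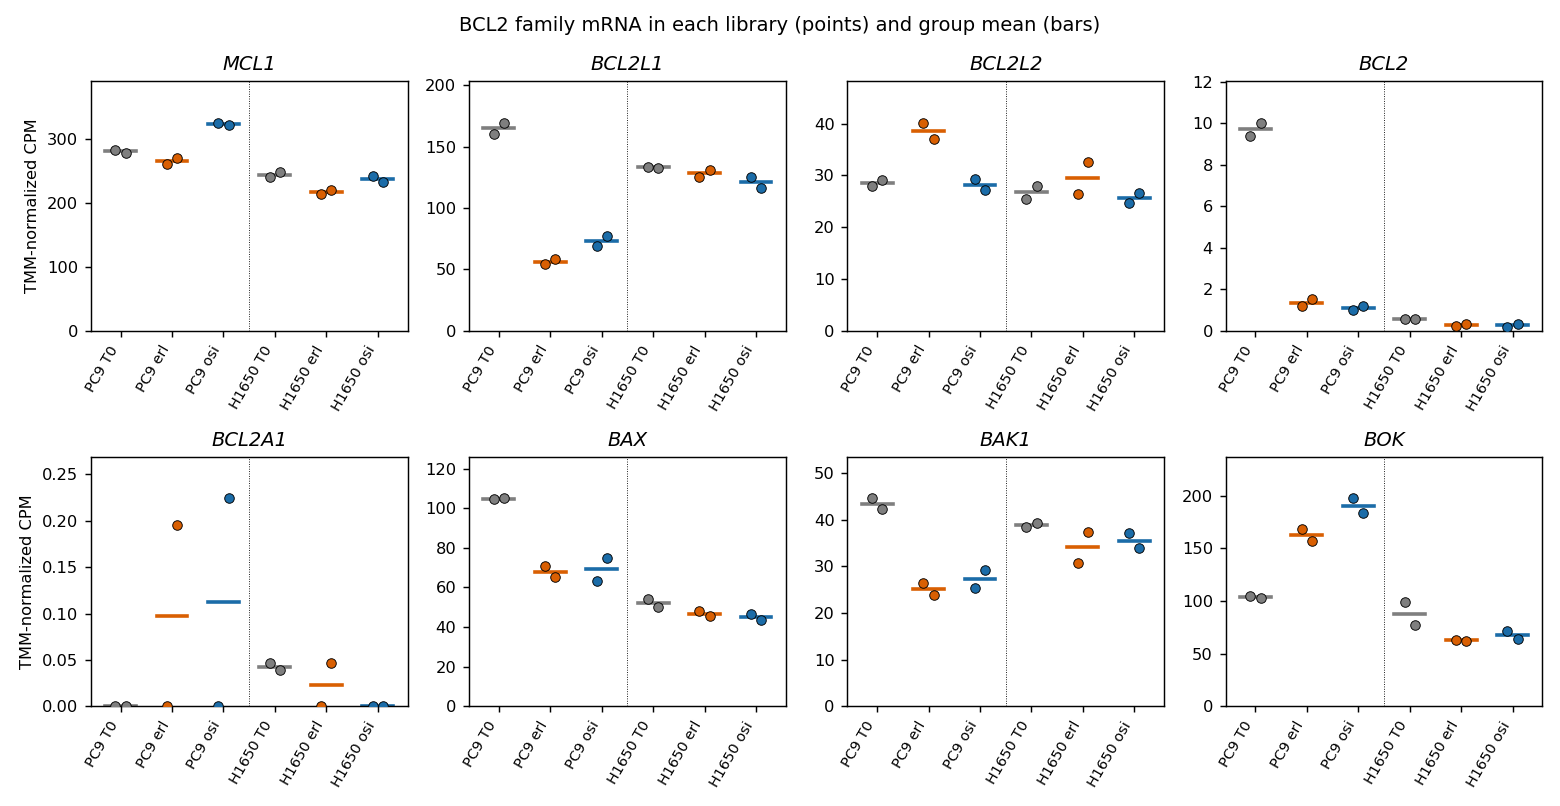
Normalized CPM (y axis, linear, from 0, own scale per gene) of the 8 genes in the 6 groups (x axis; erl, erlotinib; osi, osimertinib), with a point per library and a bar at the mean of 2 libraries. BCL2L1, BCL2, BAX and BAK1 dropped from PC9 T0 to both PC9 drug groups without overlap, and BOK rose in PC9 and fell in H1650.

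MCL1 (chr1:150574551-150579738 in GENCODE 29 on GRCh38, minus strand, as for the positions below) encodes a short-lived protein that binds BIM and BAK. Its level in PC9 cells was 284 and 278 CPM at T0, 261 and 270.1 under erlotinib, and 326 and 322 under osimertinib. In H1650 cells it was 241 and 248 CPM at T0, 214 and 221 under erlotinib, and 242 and 233 under osimertinib. MCL1 thus spanned 214 to 326 CPM over the 12 libraries, and its highest were those of PC9 cells under osimertinib. The osimertinib change in PC9 cells was a log2 fold change of 0.21 (SE 0.0664, adjusted p = 0.00878 in edgeR's quasi-likelihood test), while the erlotinib change was -0.08 (95% interval -0.217 to 0.056, adjusted p = 0.304). The call under osimertinib was lost without replicate 2 of PC9 T0 (0.19, adjusted p = 0.0793), with no expression filter (0.12, adjusted p = 0.226) and in a fit of PC9 alone (0.14, adjusted p = 0.0728). In H1650 cells, MCL1 had log2 fold changes of -0.17 under erlotinib (adjusted p = 0.0508) and -0.04 under osimertinib (adjusted p = 0.678). The former lies at the threshold, and it was called in 6 of the 7 other settings that kept all libraries (adjusted p between 0.00728 and 0.0491).

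BCL2L1 (chr20:31664452-31723989, minus strand) encodes BCL-XL. At the gene level its reads cannot be split between BCL-XL and the shorter pro-apoptotic splice form BCL-XS. In PC9 cells the level was 160.2 and 169.7 CPM at T0, 54.0 and 58.7 under erlotinib, and 69.0 and 76.9 under osimertinib. All 4 treated PC9 libraries lay far below both T0 libraries. In H1650 cells it was 134 and 133 CPM at T0, 126 and 131 under erlotinib, and 126 and 117 under osimertinib. BCL2L1 thus fell 2.92-fold in PC9 cells under erlotinib (log2 fold change -1.55, SE 0.0793, adjusted p = 7.15e-16) and 2.26-fold under osimertinib (-1.18, SE 0.0786, adjusted p = 2.12e-13). The H1650 changes were -0.05 (95% interval -0.211 to 0.103) and -0.14 (95% interval -0.295 to 0.019) and were not called. The difference between the lines was itself tested, and the change in H1650 minus that in PC9 was 1.49 with erlotinib (SE 0.110, adjusted p = 5.89e-12) and 1.04 with osimertinib (SE 0.109, adjusted p = 7.05e-09). The antisense gene ABALON shares 1424 exon bases with BCL2L1, and its own reads amounted to at most 1.79% of those of BCL2L1. Since the strand setting of the counting is not given, this share cannot show whether reads on the shared bases were counted for BCL2L1. That limit also holds for the per-length levels of BCL2L1 below.

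BCL2 (chr18:63123346-63320128, minus strand), the founding member of the family, had the largest fold change of the 7 tested members in PC9 cells, from a low level. PC9 libraries held 186 and 203 reads at T0, 26 and 39 under erlotinib, and 21 and 21 under osimertinib. In normalized units these were 9.38 and 10.0, 1.17 and 1.52, and 0.971 and 1.18 CPM. BCL2 fell 7.16-fold with erlotinib (log2 fold change -2.84, SE 0.275, adjusted p = 5.79e-10) and 9.04-fold with osimertinib (-3.18, SE 0.293, adjusted p = 2.01e-10). H1650 cells held 12 and 14 reads at T0 and 4 and 7 reads under each drug, which are close to the limit of 3 reads. Their log2 fold changes of -1.01 (95% interval -2.08 to 0.0544, adjusted p = 0.134) and -1.10 (95% interval -2.17 to -0.0329, adjusted p = 0.104) were not called. The PC9 log2 fold changes lay outside both intervals. At so few reads these intervals are approximate, and a fall of that size is not securely excluded. The H1650 minus PC9 difference was 1.82 with erlotinib (adjusted p = 0.0245) and 2.08 with osimertinib (adjusted p = 0.0122). The erlotinib difference lost its call when replicate 2 of H1650 erlotinib (1.46, adjusted p = 0.25), replicate 2 of H1650 T0, replicate 2 of PC9 T0 or replicate 1 of PC9 erlotinib was left out (adjusted p between 0.0524 and 0.0582 for the latter 3). The osimertinib difference lost its call without replicate 2 of H1650 osimertinib (1.70, adjusted p = 0.178).

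BCL2L2 (chr14:23298790-23311759, plus strand) encodes BCL-w. Its PC9 levels were 27.98 and 29.02 CPM at T0, 40.2 and 37.1 under erlotinib, and 29.2 and 27.1 under osimertinib. In PC9 cells, both erlotinib libraries stood well above T0, while the osimertinib libraries lay just outside the T0 range, 1 on either side. The rise with erlotinib was 1.35-fold (log2 fold change 0.44, SE 0.104, adjusted p = 6.41e-04), and osimertinib gave -0.02 (95% interval -0.237 to 0.205). In H1650 cells the levels were 25.4 and 27.97 CPM at T0, 26.3 and 32.5 under erlotinib, and 24.6 and 26.6 under osimertinib, and the T0 range overlapped that of both drug groups. The H1650 log2 fold changes were 0.14 and -0.06 (adjusted p = 0.329 and 0.7). BCL2L2 shares 813 exon bases with the read-through gene BCL2L2-PABPN1 on the same strand, whose reads were at most 3.06% of its own, and 206 with PPP1R3E on the opposite strand, whose reads were up to 27.4% of its own. Whether counting used strand is not given in the sources used here.

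BCL2A1 (chr15:79960889-79971446, minus strand), an NF-kB-inducible gene of blood cells, was barely detected. PC9 libraries held 0 and 0 reads at T0, 0 and 5 under erlotinib, and 0 and 4 under osimertinib. H1650 libraries held 1 and 1, 0 and 1, and 0 and 0 reads. A change of this gene was not detectable at this depth.

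BAX (chr19:48954815-48961798, plus strand) is the cytosolic effector that moves to mitochondria on activation. In PC9 cells it was at 104.5 and 105 CPM at T0, 70.8 and 65.1 under erlotinib, and 63.5 and 74.7 under osimertinib. The treated libraries did not overlap T0, and the drug groups overlapped each other. The log2 fold change was -0.63 under erlotinib (SE 0.0843, adjusted p = 2.59e-07) and -0.60 under osimertinib (SE 0.0850, adjusted p = 5.23e-07). H1650 cells had 54.0 and 50.0 CPM at T0, 48.2 and 45.4 under erlotinib, and 46.6 and 43.8 under osimertinib. These changes, -0.15 (adjusted p = 0.195) and -0.20 (adjusted p = 0.0772), were not called. The H1650 minus PC9 difference was 0.47 with erlotinib (adjusted p = 0.00235) and 0.40 with osimertinib (adjusted p = 0.00909). The osimertinib difference lost its call without replicate 1 of PC9 osimertinib (0.29, adjusted p = 0.0912) or replicate 2 of H1650 T0 (0.35, adjusted p = 0.0523).

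BAK1 (chr6:33572547-33580293, minus strand) encodes BAK, the effector that resides on mitochondria and is held by MCL1 and BCL-XL. PC9 cells had 44.6 and 42.3 CPM at T0, 26.5 and 23.9 under erlotinib, and 25.3 and 29.2 under osimertinib. As for BAX, all treated PC9 libraries lay below T0. BAK1 fell by 0.79 on the log2 scale with erlotinib (SE 0.104, adjusted p = 1.83e-07) and by 0.68 with osimertinib (SE 0.105, adjusted p = 2.56e-06). H1650 cells had 38.5 and 39.2 CPM at T0, 30.8 and 37.5 under erlotinib, and 37.1 and 34.0 under osimertinib, with log2 fold changes of -0.19 (adjusted p = 0.166) and -0.13 (adjusted p = 0.357). Without replicate 2 of H1650 erlotinib, the former was -0.34 and was called (adjusted p = 0.0327). The H1650 minus PC9 difference was 0.60 with erlotinib (adjusted p = 0.00137) and 0.55 with osimertinib (adjusted p = 0.00328). The pseudogenes BAK1P1 and BAK1P2 had at most 2 reads in a library.

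BOK (chr2:241551424-241574138, plus strand) is a less studied effector whose protein is kept low by proteasomal degradation and is not restrained by the anti-apoptotic members in the way BAX and BAK are. Its mRNA moved in opposite directions in the lines. PC9 cells had 104 and 103 CPM at T0, 169 and 157 under erlotinib, and 197 and 184 under osimertinib, so that all treated libraries lay above T0. BOK rose 1.57-fold with erlotinib (log2 fold change 0.65, SE 0.0893, adjusted p = 3.75e-07) and 1.84-fold with osimertinib (0.88, SE 0.0896, adjusted p = 1.49e-09). H1650 cells had 98.8 and 77.0 CPM at T0, 63.3 and 62.4 under erlotinib, and 71.1 and 64.2 under osimertinib, so that all treated libraries lay below T0, whose replicates were far apart. BOK fell 1.40-fold with erlotinib in H1650 (-0.48, SE 0.0925, adjusted p = 1.33e-04) and 1.30-fold with osimertinib (-0.38, SE 0.0918, adjusted p = 0.00179). Without replicate 1 of H1650 T0, the erlotinib change was -0.30 (adjusted p = 0.0225) and the osimertinib change was -0.19 and was not called (adjusted p = 0.177). The H1650 minus PC9 difference was -1.13 with erlotinib (adjusted p = 3.31e-08) and -1.25 with osimertinib (adjusted p = 4.24e-09). Over all tested genes, 464 (2.43%) were called higher in PC9 and lower in H1650 with erlotinib, and 469 (2.45%) with osimertinib. BOK-AS1, on the opposite strand, shares 201 exon bases and had at most 16 reads, with the same limit as for ABALON and BCL2L1.

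**Figure D2:**
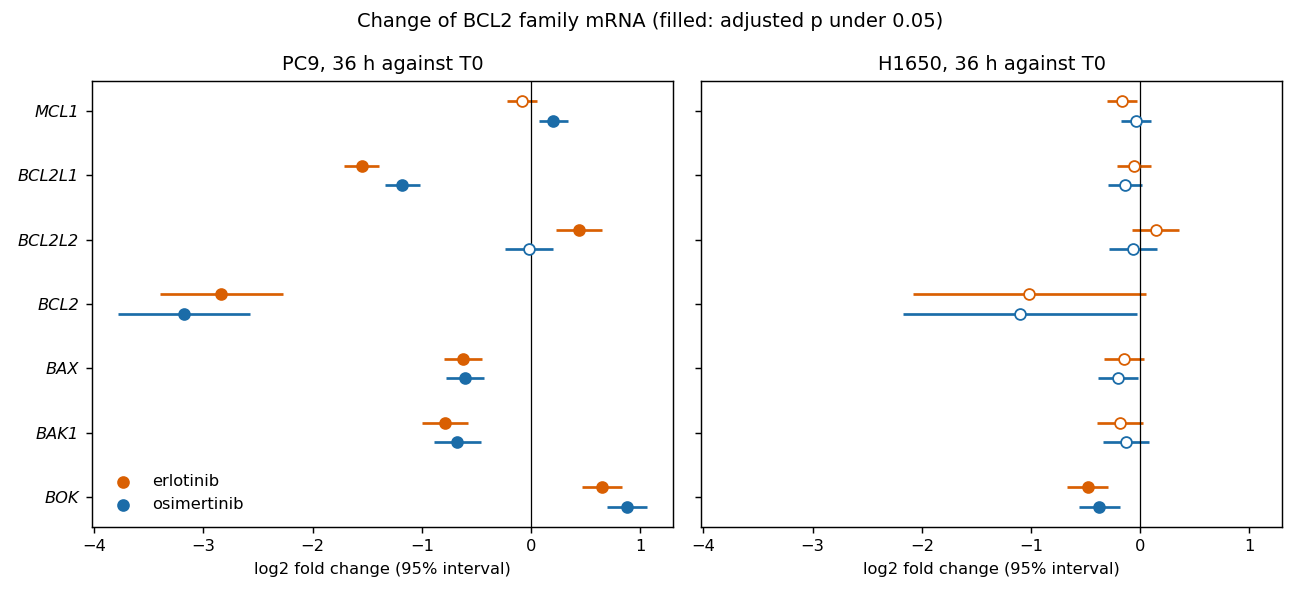
Log2 fold change against T0 (x axis) of the 7 tested genes (y axis) in PC9 (left) and H1650 (right), for erlotinib (orange) and osimertinib (blue). Lines are 95% intervals from the edgeR fit and filled points have an adjusted p under 0.05. The PC9 intervals of BCL2L1, BCL2, BAX and BAK1 lie below 0, and those of BOK lie above 0 in PC9 and below 0 in H1650.

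The responses of the lines differed for most members. Of 7 members, 5 differed between the lines with erlotinib (4 with a higher and 1 with a lower change in H1650), where 40.8% of all genes differed, 21.1% higher and 19.8% lower. With osimertinib, 6 differed (4 higher and 2 lower) against 41.9% of all genes, 21.5% higher and 20.5% lower. BCL2L1, BCL2, BAX and BAK1 had the higher change in H1650 with both drugs, and BOK the lower. MCL1 was the other called with osimertinib, at -0.25 (SE 0.0940, adjusted p = 0.0351). That call was lost in 10 of 12 fits that each left out 1 library (adjusted p up to 0.164) and with no expression filter (-0.17, adjusted p = 0.283). BCL2L2 had differences of -0.30 (95% interval -0.603 to 0.00754) and -0.05 (95% interval -0.359 to 0.264), which were not called. The erlotinib difference of BCL2L2 ran from -0.45 (without replicate 2 of H1650 erlotinib, called, adjusted p = 0.029) to -0.13 (without replicate 1 of that group), and it was also called with upper quartile normalization (-0.38, adjusted p = 0.0457).

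The drugs, given at different doses, were compared with each other within each line. In PC9 cells, 3 of 7 members were called (2 higher and 1 lower under osimertinib), where 16.6% of all genes were called, 10.1% higher and 6.41% lower. MCL1 was 1.22-fold higher under osimertinib than under erlotinib (log2 difference 0.29, SE 0.0663, adjusted p = 0.00273). BCL2L1 was 1.29-fold higher (0.37, SE 0.0804, adjusted p = 0.00145), a call lost without replicate 2 of PC9 osimertinib (0.29, adjusted p = 0.0506). BCL2L2 was 1.37-fold lower (-0.45, SE 0.105, adjusted p = 0.00254). The other 4 were not called, with differences of -0.34 for BCL2 (95% interval -1.04 to 0.369), 0.02 for BAX (-0.153 to 0.198), 0.11 for BAK1 (-0.107 to 0.334) and 0.23 for BOK (0.0496 to 0.410, adjusted p = 0.0746). The BOK difference was called without replicate 1 or 2 of H1650 T0 (adjusted p = 0.0346 and 0.0367) and with the replicate block (adjusted p = 0.00659). In H1650 cells, edgeR called 0 of 7 members, DESeq2 called 0, and 0 had an unadjusted p under 0.05, where 8.75% of all genes were called, 5.02% higher and 3.73% lower. The widest of these intervals was that of BCL2 (-1.35 to 1.18), and those of the other 6 lay between -0.424 and 0.298.

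The untreated lines already differed. At T0, 5 of 7 members were called lower in H1650 than in PC9 and 0 higher, where 69.6% of all genes were called and 33.8% were called lower. BCL2 was 17.5-fold lower in H1650 (log2 difference -4.13, SE 0.315, adjusted p = 3.33e-12). BAX was 2.02-fold lower (-1.01, SE 0.0857, adjusted p = 2.94e-11), with 54.0 and 50.0 CPM beside 104.5 and 105. BCL2L1 was 1.24-fold lower (-0.31, adjusted p = 7.72e-04). MCL1 was at -0.20 (adjusted p = 0.009) and BOK at -0.24 (adjusted p = 0.0206). These calls of MCL1 and BOK were less stable, and 3 of 7 members were called without replicate 1 of PC9 T0. MCL1 was not called without that library (adjusted p = 0.0627) or replicate 1 of H1650 T0 (adjusted p = 0.0511). BOK was not called without replicate 1 or 2 of PC9 T0 (adjusted p = 0.0755 and 0.0578) or without replicate 2 of H1650 T0 (-0.07, adjusted p = 0.561), and stood at -0.45 without replicate 1 of H1650 T0.

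With drug, the order of the lines turned for BCL2L1, from lower to higher in H1650. BAK1 had no called order at T0 (-0.16, 95% interval -0.369 to 0.0468, adjusted p = 0.16) and was higher in H1650 with each drug. Under erlotinib, all 7 members were called between the lines (72.1% of all genes, 36.7% higher and 35.4% lower in H1650), with BCL2L1 2.28-fold (log2 difference 1.19, SE 0.0792) and BAK1 1.36-fold (0.44, SE 0.105) higher in H1650 and the other 5 lower. BOK was then 2.58-fold lower in H1650 (-1.37, SE 0.0919). Under osimertinib, 6 were called (71.6% of all genes, 36.6% higher and 35% lower), with BCL2L1 1.66-fold and BAK1 1.31-fold higher in H1650. BOK was 2.82-fold lower (-1.49, SE 0.0916). The BAK1 difference under osimertinib was not called without replicate 1 of PC9 osimertinib (0.28, adjusted p = 0.06), nor that of BCL2L2 under erlotinib without replicate 1 of H1650 erlotinib (-0.25, adjusted p = 0.0764). The BAK1 difference under erlotinib was 0.28 without replicate 2 of H1650 erlotinib (adjusted p = 0.048).

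To compare genes with each other, levels were divided by the gene length given in the count table (CPM per kilobase, RPKM, mean ± SD, n = 2). At T0 in PC9 cells, the order was MCL1 (64.3 ± 0.904), BCL2L1 (49.8 ± 2.04), BAX (40.5 ± 0.145), BOK (38.7 ± 0.367), BAK1 (19.65 ± 0.740), BCL2L2 (6.94 ± 0.180), BCL2 (0.824 ± 0.0386) and BCL2A1 (0). Under erlotinib, MCL1 (60.8 ± 1.40) and BOK (60.6 ± 3.15) no longer differed beyond their spread, and BAX (26.3 ± 1.54) now exceeded BCL2L1 (17.0 ± 0.995). Under osimertinib, MCL1 (74.1 ± 0.739) and BOK (71.1 ± 3.67) also differed by less than the SD of BOK. By the longest transcripts, however, MCL1 stood above BOK with each drug. The values were 67.6 ± 1.56 beside 61.2 ± 3.18 under erlotinib, and 82.4 ± 0.822 beside 71.7 ± 3.71 under osimertinib. In H1650 cells at T0, MCL1 (55.9 ± 1.15) and BCL2L1 (40.2 ± 0.212) again led, followed by BOK (32.8 ± 5.77), BAX (20.1 ± 1.08) and BAK1 (17.6 ± 0.243). MCL1 and BCL2L1 also led H1650 cells under erlotinib (49.8 ± 1.06 and 38.7 ± 1.18) and osimertinib (54.3 ± 1.46 and 36.5 ± 1.95). There BAX and BAK1 stood at 18.1 ± 0.753 and 15.4 ± 2.15 under erlotinib and at 17.5 ± 0.766 and 16.1 ± 1.01 under osimertinib. By the longest transcripts BAX was the higher by more, at 34.5 beside 15.4 and at 33.3 beside 16.1. The place of BAX, like that of BOK beside MCL1 in treated PC9 cells, depends on the length used. The table gives BAX 2587 bases while its longest GENCODE 29 transcript has 1358, and by that length BAX would stand at 77.2 RPKM in PC9 cells at T0, above MCL1 (71.5) and BOK (39.0). In H1650 cells at T0 it would stand at 38.3, above BOK (33.1). In PC9 cells under either drug, BOK stood above BAX with both lengths (61.2 beside 50.0 under erlotinib and 71.7 beside 50.9 under osimertinib, by the longest transcripts).

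The summed anti-apoptotic mRNA in PC9 cells went from 121.8 ± 1.34 RPKM at T0 to 87.4 ± 2.05 under erlotinib and 103.2 ± 0.848 under osimertinib. The summed effector mRNA was 98.8 ± 0.962, 98.3 ± 5.54 and 110.1 ± 0.707, which at T0 and under erlotinib differed by less than the SD under erlotinib. By the longest transcripts, however, the effector sum was 135.8 ± 0.834 at T0, 122.6 ± 6.97 under erlotinib and 134.9 ± 3.4 under osimertinib, and thus lower with erlotinib. The ratio of the anti-apoptotic to the effector sum was 1.23 ± 0.0255 at T0, 0.892 ± 0.0711 under erlotinib and 0.937 ± 0.00170 under osimertinib. In H1650 cells the anti-apoptotic sum was 102.7 ± 1.41 RPKM at T0, 95.7 ± 3.35 under erlotinib and 97.1 ± 3.06 under osimertinib. The effector sum there was 70.5 ± 6.60, 57.0 ± 1.17 and 58.8 ± 3.58, so that both sums were lower with drug. The H1650 ratio was 1.47 ± 0.157 at T0, 1.68 ± 0.0240 under erlotinib and 1.65 ± 0.0488 under osimertinib. The ratio therefore lay lower with drug than at T0 in PC9 and higher in H1650, where the T0 replicates were widely spread. These sums are descriptions without a test.

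The make-up of each sum also changed in PC9 cells. MCL1 made up 52.8% ± 1.33 of the anti-apoptotic sum at T0, 69.5% ± 0.0283 under erlotinib and 71.8% ± 1.27 under osimertinib. The part of BCL2L1 went from 40.9% ± 1.22 to 19.4% ± 0.679 and 21.3% ± 1.49. Among the effectors, BOK went from 39.1% ± 0.0141 to 61.7% ± 0.276 and 64.6% ± 3.71. In H1650 cells, MCL1 made up 54.4%, 52.0% and 55.9% of the anti-apoptotic sum in the same order, and BOK made up 46.4%, 41.2% and 42.9% of the effector sum. The effector shares depend on the length used for BAX. By the longest transcripts, BOK in PC9 cells was 39.0 of a sum of 135.8 RPKM, 61.2 of 122.6 and 71.7 of 134.9. In H1650 cells BAX then exceeded BOK, at 38.3 beside 33.1, 34.5 beside 23.65 and 33.3 beside 25.5. The ratio of MCL1 to BCL2L1 mRNA per length was 1.29 ± 0.0707 in PC9 cells at T0, 3.58 ± 0.127 under erlotinib and 3.38 ± 0.294 under osimertinib, and between 1.29 and 1.49 in the 3 groups of H1650.

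**Figure D3:**
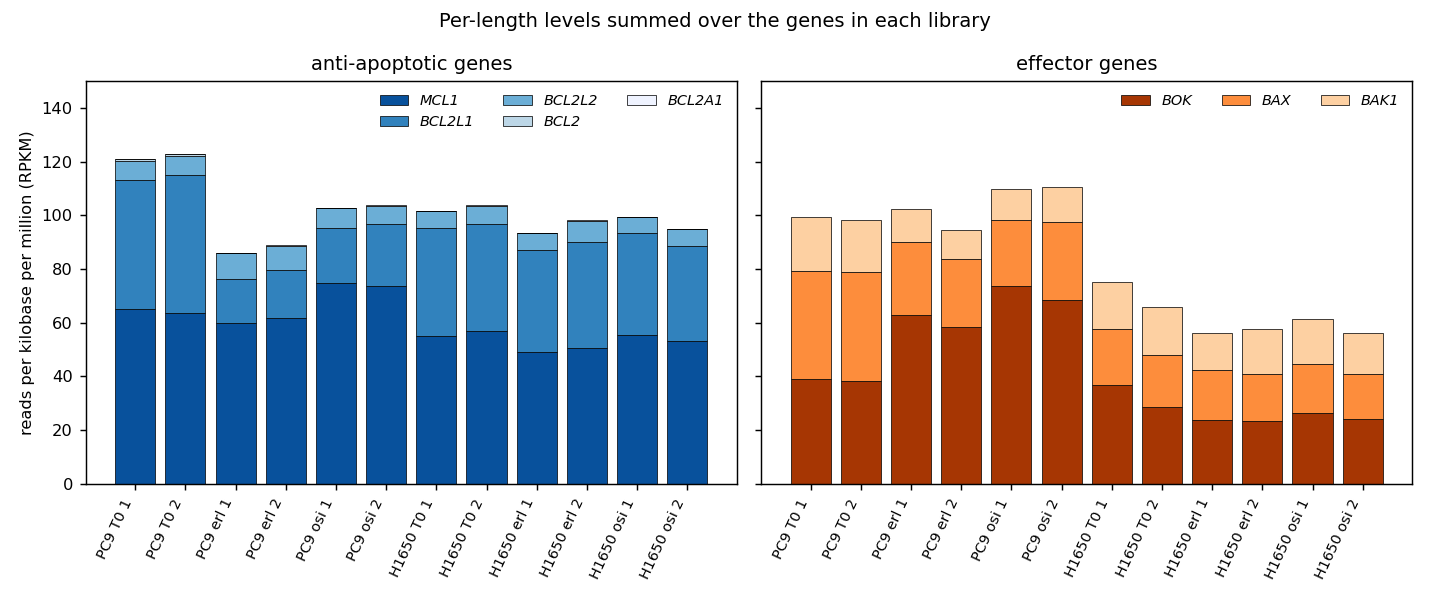
RPKM (y axis, linear, from 0) of the anti-apoptotic genes (left) and the effector genes (right), stacked, in each of the 12 libraries (x axis; the last digit is the replicate). The BCL2L1 block shrinks in the treated PC9 libraries while MCL1 remains, and BOK becomes the largest effector block there.

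BH3-only genes, whose products antagonize the anti-apoptotic members, were all tested (8 of 8). In PC9 cells 5 rose and 2 fell with erlotinib, and 5 rose and 1 fell with osimertinib. In H1650 cells 4 rose and 0 fell with erlotinib, and 5 rose and 0 fell with osimertinib. Over all genes, 32.7% and 32.7% were called higher in the PC9 comparisons, and 18% and 17.8% in those of H1650. Called lower were 29.1% and 28.7% of all genes in PC9, and 18.5% and 17.9% in H1650. The median log2 fold change of the list was 1.17 and 1.08 in PC9 and 0.39 and 0.53 in H1650.

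BMF, a BH3-only gene linked to the cytoskeleton and loss of attachment, had 1.76 and 1.09 CPM in PC9 cells at T0, 86.9 and 94.1 under erlotinib, and 85.4 and 85.9 under osimertinib. Its log2 fold change was 5.99 (SE 0.139) and 5.91 (SE 0.140) in PC9, and 1.35 and 1.68 in H1650, where T0 stood at 28.3 and 30.8 CPM. BMF was thus low at T0 in PC9 and of similar level in all treated groups of both lines, between 72.7 and 95.05 CPM. HRK, which binds BCL-XL, had log2 fold changes of 4.50 and 4.20 in PC9 cells, from 8 and 1 reads at T0, and of 1.38 and 0.85 in H1650. BBC3, which encodes PUMA, rose by 2.68 and 2.34 in PC9 and by 1.58 and 1.49 in H1650. BCL2L11, which encodes BIM, rose by 1.67 and 1.70 in PC9 and by 0.59 and 0.73 in H1650. In these 4 genes the change in H1650 was smaller, with H1650 minus PC9 differences from -4.63 to -1.08 under erlotinib and from -4.23 to -0.85 under osimertinib, all called. At T0, 5 of the 8 BH3-only genes were called higher in H1650 than in PC9 and 1 lower, beside 35.8% and 33.8% of all genes. Mean BCL2L11 in PC9 and H1650 was 18.98 and 45.46 CPM at T0, 60.57 and 68.53 under erlotinib, and 61.75 and 75.69 under osimertinib. HRK means were 0.226 and 5.78, 5.18 and 15.1, and 4.27 and 10.4 CPM in the same order. For BBC3 they were 3.69 and 5.55, 23.8 and 16.6, and 18.7 and 15.6 CPM, lower in H1650 with drug. PMAIP1, which encodes the MCL1-binding protein NOXA, rose by 0.67 and 0.46 in PC9 and had 0.19 and 0.21 in H1650 (adjusted p = 0.176 and 0.136). BID fell by 0.52 and 0.53 in PC9, and in H1650 it had 0.17 under erlotinib (not called) and rose by 0.32 under osimertinib. BIK fell by 0.83 in PC9 under erlotinib, and BAD was called in none of the 4 comparisons (adjusted p between 0.0955 and 0.803).

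**Figure D4:**
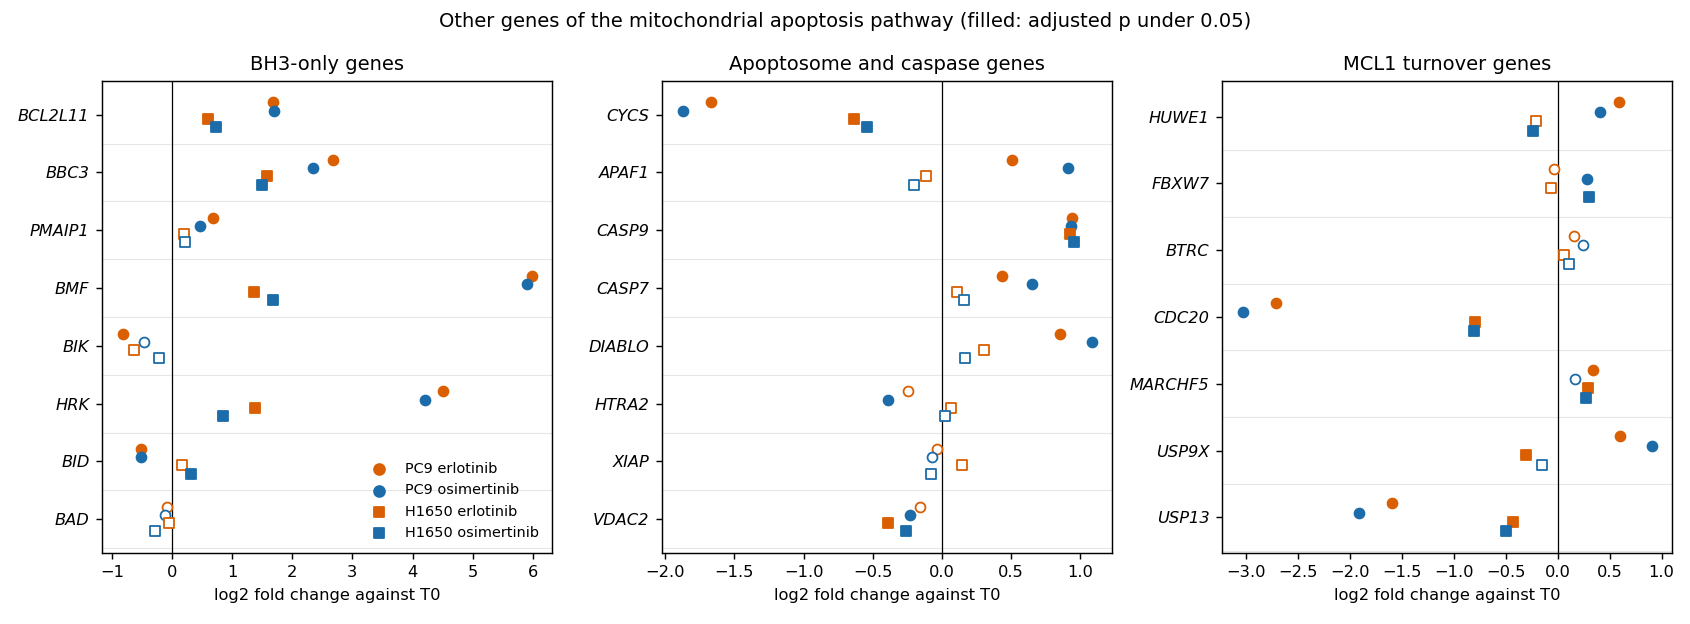
Log2 fold change against T0 (x axes, separate scales) of genes of 3 pathway lists (y axes), for PC9 (circles) and H1650 (squares) under erlotinib (orange) and osimertinib (blue), with filled symbols at an adjusted p under 0.05. BMF, HRK, BBC3 and BCL2L11 lie to the right in both lines, farther in PC9.

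Of the 5 other BCL2 homologues, 4 were tested and BCL2L15 was not. With erlotinib and osimertinib, 2 rose and 1 fell in PC9 in each case, while 0 rose and 1 fell, and 1 rose and 1 fell, in H1650. These are 3 of 4 in PC9, beside 61.8% and 61.4% of all tested genes, and 1 and 2 of 4 in H1650, beside 36.5% and 35.7%. BCL2L14 went from 5 and 5 reads at T0 to 49 and 92 under erlotinib in PC9 (log2 fold change 3.51, SE 0.490), and BCL2L13, a mitochondrial membrane protein, rose by 0.61. BCL2L12 fell by 1.40 and 1.49 in PC9 and by 0.44 and 0.43 in H1650.

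Downstream of the effectors, 9 apoptosome and caspase genes were tested. In PC9 cells 5 rose and 1 fell with erlotinib, and 5 rose and 3 fell with osimertinib, and in H1650 cells 1 rose and 2 fell with each drug. The called shares, 6 and 8 of 9 in PC9 and 3 of 9 in H1650, stand beside 61.8% and 61.4%, and 36.5% and 35.7%, of all tested genes. CASP9, the initiator caspase of the apoptosome, rose by 0.95 (SE 0.145) and 0.94 in PC9 and by 0.93 and 0.96 in H1650. DIABLO, a mitochondrial antagonist of XIAP, rose by 0.86 and 1.09 in PC9, where it was counted at few reads. These were 29 and 23 at T0, 52 and 61 under erlotinib, and 60 and 49 under osimertinib. CYCS, which encodes cytochrome c, fell by 1.67 (SE 0.0819) and 1.88 in PC9 and by 0.63 and 0.54 in H1650, and its count is uncertain because near-identical pseudogenes can share its reads.

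Since MCL1 protein is set largely by its degradation, 7 genes of MCL1 ubiquitin ligases and deubiquitinases were also read. In PC9 cells 3 rose and 2 fell with each drug. In H1650 cells 1 rose and 3 fell with erlotinib, and 2 rose and 3 fell with osimertinib, of which 3 in all were called without replicate 1 of H1650 T0. All tested genes were called at 61.8% and 61.4% in PC9 and at 36.5% and 35.7% in H1650. The deubiquitinase USP9X rose by 0.60 (SE 0.0749) and the ligase HUWE1 by 0.59 (SE 0.0902) in PC9 under erlotinib. In H1650 under erlotinib USP9X fell by 0.30 (adjusted p = 0.00134), and HUWE1 had -0.20 (adjusted p = 0.0793). The deubiquitinase USP13 fell by 1.59 and 1.92 in PC9 and by 0.43 and 0.50 in H1650. CDC20, an activator of the anaphase-promoting complex that acts on MCL1 in mitosis and a general mitotic gene, fell by 2.71 and 3.03 in PC9 and by 0.79 and 0.81 in H1650. Protein levels were not analysed here.

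BCL2A1 and BCL2L1 are known NF-kB targets, and 8 other NF-kB target genes were examined beside them. In PC9 cells 6 rose and 2 fell with each drug, and in H1650 cells 2 rose and 5 fell with erlotinib and 2 rose and 4 fell with osimertinib. Of all tested genes, 32.7% were called higher with each drug and 29.1% and 28.7% lower in PC9, and 18% and 17.8% higher and 18.5% and 17.9% lower in H1650. ICAM1 rose by 2.11 (SE 0.131) and TRAF1, an adaptor of TNF receptors, by 1.88 (SE 0.203) in PC9 under erlotinib. TNFAIP3, a feedback inhibitor of NF-kB, fell by 3.21 (SE 0.103). CXCL8 went from 39 and 32 reads to 0 in both libraries, at least 14.1-fold lower when each treated library is set to 3 reads.

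Among 10288 tested genes with a mean of at least 10 CPM, the patterns most like those of the members over the 12 libraries (Pearson r of log2 CPM) were as follows. NME7 (0.973) came closest to MCL1, PI4K2B (0.991), HIGD1A (0.990) and POLQ (0.989) to BCL2L1, and USP10 (0.995) to BCL2. EFHD2 (0.992), ZC3H18 (0.990) and PPIF (0.989) came closest to BAX, and DOLPP1 (0.974) and CENPW (0.973) to BAK1. FZD2 (0.991), NAV2 (0.986) and WNT9A (0.986) came closest to BOK. BCL2L2 had the least similar neighbours, led by RSL24D1 (0.920). The libraries share 6 groups and 2 lines, so that these values chiefly describe differences between groups.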

How the data were processed

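RNA-seq of 12 libraries was analysed. The authors processed reads with the DolphinNext pipeline against GRCh38, per the submitters' processing notes, and deposited featureCounts counts per gene without normalization. The aligner, annotation and strandedness are not given in the sources used here. Groups follow the sample labels.

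Tests used edgeR 4.0.16 (R 4.3.3): filterByExpr (41483 genes left out, at least 99.9% of reads kept), TMM factors (0.941 to 1.08) and one quasi-likelihood fit of 6 group means (6 residual and 20.7 prior degrees of freedom), with Benjamini-Hochberg adjustment over 19108 genes and calls at an adjusted p under 0.05. Alternatives were another tool (DESeq2 1.42.0), other normalizations (RLE, upper quartile), no filter, at least 10 counts in every library, one fit per line, the replicate number as a block, longest transcripts as lengths, raw totals, and leaving out each library. The fits were tested on simulated data. Folds against 3 reads or fewer are bounds.

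The members and lists were chosen with earlier results of these data known. Named genes are the members, all BH3-only genes, and from each other list the called genes with the 2 highest and 2 lowest changes in PC9 under erlotinib, apart from markers and ERK outputs; 1 gene of the apoptosome list is counted but not reported here. For each member, the 3 genes of most similar pattern were sought, and those given are some of them.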

Additional observations from a re-analysis of the deposited data

Results flagged for a closer look

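The change with drug differed between H1650 and PC9 cells, by the test of the difference itself in the edgeR fit, for 5 members with erlotinib and 6 with osimertinib. With erlotinib the H1650 minus PC9 difference in log2 fold change was 1.49 for BCL2L1, 1.82 for BCL2, 0.47 for BAX, 0.60 for BAK1 and -1.13 for BOK. With osimertinib it was 1.04 for BCL2L1, 2.08 for BCL2, 0.40 for BAX, 0.55 for BAK1, -1.25 for BOK and -0.25 for MCL1. The erlotinib and osimertinib comparisons share their T0 libraries. BOK was the one member called in opposite directions in the lines, at 0.65 (erlotinib) and 0.88 (osimertinib) in PC9 against -0.48 and -0.38 in H1650. The H1650 values of BCL2 rest on 4 to 14 reads per library, and the H1650 T0 replicates of BOK stood at 98.8 and 77.0 CPM.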

How the results depend on the processing

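The calls of BCL2L1, BCL2, BAX, BAK1 and BOK in PC9 cells with both drugs kept their direction and their side of the threshold in every alternative fit in which they were tested, though BCL2 was not tested where 10 counts per library were required. The count of members called in H1650 with erlotinib was 2 rather than 1 under DESeq2, RLE, upper quartile normalization, no filter, at least 10 counts in every library, and the replicate block, each time by adding MCL1. Without 1 library it lay between 1 and 2, in H1650 with osimertinib between 0 and 1, and for H1650 against PC9 at T0 between 3 and 5, and the MCL1 turnover genes called in H1650 with osimertinib lay between 3 and 5. One fit per line called 2 rather than 1 of the other BCL2 homologues in H1650 with erlotinib. By longest transcripts the ratio of the anti-apoptotic to the effector sum was 1.06 in PC9 at T0, 0.819 under erlotinib and 0.878 under osimertinib. In H1650 it was 1.53 and 1.52 under erlotinib and osimertinib. The H1650 sums by that length were 120.7 and 88.93 RPKM at T0, 112.7 and 73.55 under erlotinib, and 113.9 and 74.81 under osimertinib. Small, uncalled values changed sign: MCL1 in PC9 with erlotinib (0.0104, upper quartile), BCL2L2 in PC9 with osimertinib (0.0567, upper quartile, and 0.0322, at least 10 counts), the BCL2L2 osimertinib difference between lines (0.0279, no filter) and BAX between the drugs in PC9 (-0.0013, no filter). Without 1 library, these uncalled values also changed sign: BCL2 between the drugs in H1650 (-0.48 to 0.30), BCL2L2 in PC9 with osimertinib (-0.0750 to 0.0326), in H1650 with erlotinib (-0.0295 to 0.29) and osimertinib (-0.13 to 0.00823) and its osimertinib difference between lines (-0.0980 to 0.0273), BAX between the drugs in PC9 (-0.0990 to 0.14) and BAK1 between the drugs in H1650 (-0.0784 to 0.22). The cause was not tested.

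The correlation of same-numbered deviations lay between -0.0671 and 0.0947 over 15 pairs of groups. All tested genes enter it, including those of few reads, where counting error lowers it. It therefore cannot exclude that replicate numbers pair the samples. With the replicate block, 2 members rather than 1 were called in H1650 with erlotinib and 2 rather than 1 with osimertinib (BAX, -0.20, adjusted p = 0.0255), and BOK was called between the drugs in PC9 (0.23, adjusted p = 0.00659). Depth limits BCL2A1, and BCL2 in H1650.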
